A study of Mus musculus with 9 samples.

Results

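The comparison set the aorta of mice fed a high fat diet (HF) for 12 weeks against that of mice fed a normal diet (ND) for the same time. Its members were the arrays whose titles name these diets, 3 HF and 3 ND, which are 6 of the 9 arrays of the series. All mice were male C57BL/6J, an inbred strain that gains fat on such food, and the labels name no engineered allele. The other 3 arrays, from mice on high fat diet with exercise training (HE), entered the fit only to estimate the spread. The study placed 8 mice in each group, and no label says which animal an array came from, so the p-values measure the spread between arrays, which may be technical. Mice were fasted overnight and killed a day after training had ended. The study text speaks of aortic endothelium and the labels of the whole aorta.

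The aorta is a wall of smooth muscle, elastic matrix and fibroblasts, lined by endothelium and wrapped in fat. A high fat diet is known to add lipid load, insulin resistance and oxidant stress to this wall. Its cells answer misfolded protein with heat shock proteins, chaperones that bind exposed stretches of other proteins. The array was built for messenger RNAs and for long non-coding RNAs, transcripts without a protein product, many of which start near a protein-coding gene and run away from it on the opposite strand. In bulk tissue, fewer cells of a type and less RNA per cell cannot be told apart.

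Each array held 91188 probes of 60 bases, and the files pair none with a gene name. The tissue label could therefore not be checked against markers of endothelium, smooth muscle or fat. Genes were instead placed by sequence: 784 probes matched the start region of a RefSeq gene, the 250 bases before its first base and the 50 after, over at least 30 bases in the build GRCm38.p6. Of these, 698 matched 1 place and 1 gene, and 384 of them were tested. Of the 788 genes on the lists drawn up for this tissue, 5 had such a probe. They were Hspa1a, Hbb-bs, Etfb, Tm7sf2 and Ndufb5, and only Hspa1a had an unadjusted p under 0.05. Other parts of the genome were not searched, so a match says where a probe can lie and not that it lies nowhere else.

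The sequences that carry the results are shown here, 5′ to 3′ as deposited. The first set holds probes at gene starts. Capitals mark bases that lie inside the gene, counted from its first base, or the poly(A) signal AATAAA in A_55_P2021886. A_55_P2158314 lies on the strand opposite Hspa1a at chr17:34972094-34972153 and A_30_P01022304 opposite the long non-coding RNA Snhg3 at chr4:132353618-132353677. A_66_P106238 lies upstream of Abcb1b at chr5:8797945-8798004, A_66_P107174 upstream of Eef2k at chr7:120842688-120842747 and A_55_P2025655 upstream of Cdr1 at chrX:61185640-61185699, all 3 on the opposite strand. A_55_P2073582 lies opposite the start of Rbm10, inside Ndufb11, at chrX:20617504-20617563. A_55_P2021886 lies upstream of Cul7, inside Mrpl2, at chr17:46650072-46650131.
A_55_P2158314: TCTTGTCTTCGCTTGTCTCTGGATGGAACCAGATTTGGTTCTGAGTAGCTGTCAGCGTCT
A_30_P01022304: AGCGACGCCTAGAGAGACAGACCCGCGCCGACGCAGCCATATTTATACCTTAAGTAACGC
A_66_P106238: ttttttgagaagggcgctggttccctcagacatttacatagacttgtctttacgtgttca
A_66_P107174: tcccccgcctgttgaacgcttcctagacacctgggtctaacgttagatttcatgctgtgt
A_55_P2025655: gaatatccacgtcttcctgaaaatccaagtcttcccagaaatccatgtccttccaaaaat
A_55_P2073582: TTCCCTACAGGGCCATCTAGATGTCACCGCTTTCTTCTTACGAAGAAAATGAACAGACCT
A_55_P2021886: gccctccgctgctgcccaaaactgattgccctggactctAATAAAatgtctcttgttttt
The second set holds probes without a matched gene, chosen for the smallest unadjusted p at a log2 difference of 1 or more, the first 4 being higher and the last 3 lower in HF. Capitals mark AATAAA.
A_55_P2068459: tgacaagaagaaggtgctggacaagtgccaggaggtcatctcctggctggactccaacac
A_55_P2097391: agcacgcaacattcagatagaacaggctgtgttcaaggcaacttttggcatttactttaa
A_52_P249920: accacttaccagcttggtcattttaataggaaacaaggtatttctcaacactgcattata
A_51_P255699: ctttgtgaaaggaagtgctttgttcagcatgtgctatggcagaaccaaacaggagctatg
mmu_18159_PI428960544: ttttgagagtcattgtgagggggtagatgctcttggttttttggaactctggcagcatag
mmu_28906_PI428960544: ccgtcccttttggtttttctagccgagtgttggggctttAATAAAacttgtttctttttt
mmu_26462_PI428960544: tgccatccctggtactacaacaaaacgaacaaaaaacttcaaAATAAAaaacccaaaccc
The third set shows the repeats of a class described further on. Capitals mark the longest run of alternating bases, G with T in the first 3 and A with C in the last.
A_55_P2072403: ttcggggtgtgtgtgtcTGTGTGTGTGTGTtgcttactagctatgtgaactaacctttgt
mmu_26509_PI428960544: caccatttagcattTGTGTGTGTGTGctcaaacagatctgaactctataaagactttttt
A_55_P2066792: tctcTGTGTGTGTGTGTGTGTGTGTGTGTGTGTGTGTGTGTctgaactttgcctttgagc
A_55_P1988774: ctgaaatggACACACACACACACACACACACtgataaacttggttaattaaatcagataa
The fourth set shows probes with many cytosines at their 5′ end, from upstream of Galnt13 at chr2:54436297-54436356 and of Stt3b at chr9:115310519-115310578, both on the opposite strand. Capitals mark C among the first 15 bases.
A_55_P2147616: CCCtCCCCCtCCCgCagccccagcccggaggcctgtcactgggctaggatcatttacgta
A_52_P311031: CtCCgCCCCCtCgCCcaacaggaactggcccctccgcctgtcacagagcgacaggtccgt
The last set shows a pair of probes that overlap on 1 strand. Capitals mark the 57 bases they share.
A_55_P2312144: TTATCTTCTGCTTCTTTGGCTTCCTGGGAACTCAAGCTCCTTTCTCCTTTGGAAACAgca
mmu_29244_PI428960544: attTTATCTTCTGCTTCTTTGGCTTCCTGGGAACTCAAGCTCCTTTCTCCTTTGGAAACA

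The arrays came from 3 slides. The ND arrays and HF replicate 1 were on slide 1, and HF replicates 2 and 3 were on slide 2 with a pair of HE arrays, so slide and diet overlap in part. Between 41.1% and 48.9% of the probes of the 6 arrays were well above background, and HF replicate 1 had the lowest share. In HF the share averaged 44.4% ± 2.93 (SD, n = 3), and in ND it averaged 46.3% ± 2.68 (SD, n = 3) (two-sided exact permutation p = 0.50). The 3′ minus 5′ difference of the Gapdh control probes, a sign of RNA quality, averaged -2.00 ± 0.11 (SD, n = 3) on the log2 scale in HF, while ND had -1.81 ± 0.10 (SD, n = 3), and the arrays did not overlap. Its exact permutation p of 0.10 is the smallest that 3 arrays against 3 allow, and the adjusted value over the 4 array measures tested was 0.40. For Pgk1 the same difference was 2.31 in HF and 2.40 in ND (exact permutation p = 0.30). On HF replicate 1 the Gapdh difference was -1.93, also below the ND arrays of its slide, which ran from -1.89 to -1.70. The part of RNA quality in the differences below was not tested, and a value within slide 1, where given, sets 1 HF array against 3 ND arrays.

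No probe passed limma's test at an adjusted p under 0.05, so each difference below is a description at an unadjusted p. Of the 43949 probes tested, 4312 (9.81%) had an unadjusted p under 0.05. In HF 4.49% were higher and 5.32% lower. The arrays of the diets did not overlap for 8.61% of the probes in the higher and 7.73% in the lower direction. Those shares are the background for every count that follows. At least a 2-fold difference at that p was reached by 0.241% in the higher and 0.46% in the lower direction. Levels are log2 processed signals from which the array's 75th percentile was taken away, and differences are HF minus ND on that scale.

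The heat shock locus gave the probe with the smallest p of any placed at a gene start. Hspa1a encodes the stress-induced chaperone of the HSP70 family, and A_55_P2158314 lies 4 to 63 bases into the gene on the opposite strand. Its level was -0.90, -0.57 and -0.38 on the ND arrays and 0.75, 0.81 and 0.67 on the HF arrays. The HF arrays were close to each other and all lay above the ND arrays. The difference was 1.36 ± 0.16 (SE, n = 3 per group), 2.56-fold, with an adjusted p of 0.179 in limma. The HF array on slide 1 differed from the ND mean by 1.37, as much as the whole group. After the normexp background correction the difference was 0.89 with an adjusted p of 0.0465, and over all alternatives the adjusted p ran from 0.0465 to 0.620. RefSeq lists no other gene over the probe's place in this build. No tested probe was placed at the start of Hspa1a on its own strand. The rest of the gene was not searched, so probes without a matched gene may still read it.

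A long non-coding locus stood on the other side. Snhg3 is a host gene of small nucleolar RNAs, which guide the chemical modification of other RNAs and are cut from its introns. The probe opposite its first bases, A_30_P01022304, had a level of 4.56, 5.04 and 4.76 on the ND arrays and 3.93, 3.35 and 3.86 on the HF arrays. All HF arrays lay below all ND arrays, and HF replicate 1, on the ND slide, was the nearest to them. The difference was -1.08 ± 0.22 (SE, n = 3 per group), with an adjusted p of 0.361 in limma, and it was -0.86 within slide 1. It was -1.06 after normexp, and its adjusted p ran from 0.166 to 0.751 over the alternatives.

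Among probes at gene starts, 27 of the 384 had an unadjusted p under 0.05, of which 9 were higher and 18 lower with the fat-rich diet. That is 7.03% against the background of 9.81%, so gene starts as a group did not hold more such probes than the array. Their median difference was -0.06, against 0.00 for all probes tested, and it turned to 0.02 when each array was set to its median. By strand, 20 of 196 probes (10.2%) on the strand opposite the gene and 7 of 188 (3.72%) on its own strand had such a p. The opposite-strand probes of protein-coding genes held 13 of 118 and those of long non-coding genes 7 of 78 (8.97%). On the gene's own strand the numbers were 5 of 132 (3.79%) and 2 of 56 (3.57%). The difference between the strands was not tested. The members named below were singled out after their values were seen.

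**Figure D1:**
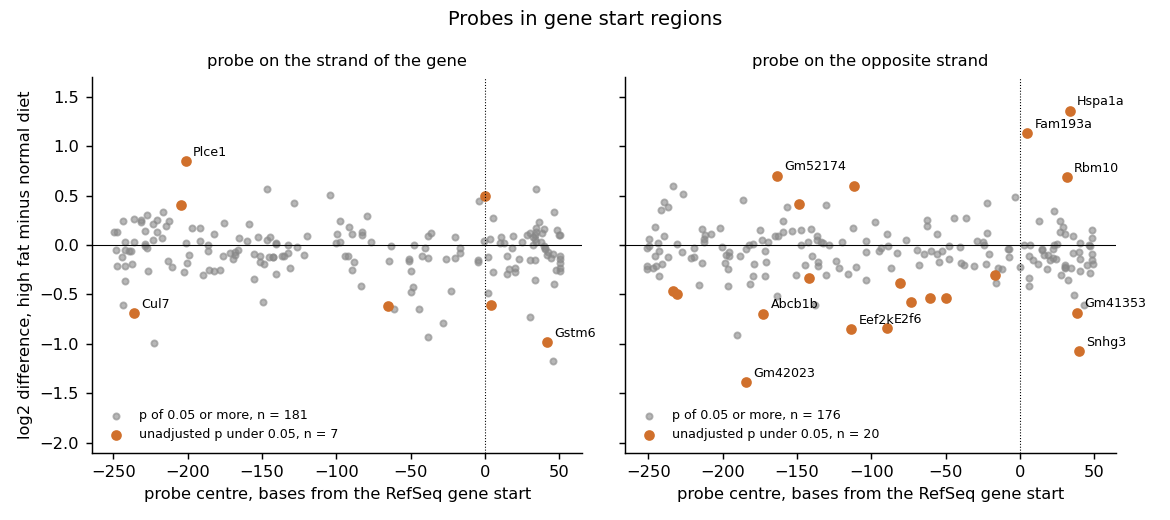
Each point is a probe at a RefSeq gene start, placed by the distance of its centre from the gene's first base in bases (x axis) and by its log2 difference, high fat minus normal diet (y axis). Coloured points are the 7 probes on the gene's own strand and the 20 on the opposite strand with an unadjusted p under 0.05. The probe opposite Hspa1a is the highest point at 1.36.

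Several of these probes lay inside a second gene that RefSeq places on the probe's own strand. A_55_P2073582 lies within Ndufb11 and A_51_P279854 within Ndufa11, both accessory subunits of mitochondrial complex I, the entry point of electrons from NADH. The Ndufb11 probe had levels of -1.46, -1.86 and -1.11 in ND and -0.96, -0.60 and -0.82 in HF, a difference of 0.68 ± 0.20 (SE, n = 3 per group) with an adjusted p of 0.434 in limma. The Ndufa11 probe, upstream of Vmac, was higher in HF by 0.42 ± 0.16 (SE). In neither did the arrays of the diets overlap.

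A_55_P2021886 lies within Mrpl2, a protein of the large subunit of the mitochondrial ribosome, and holds a poly(A) signal. Its levels were 5.14, 6.03 and 5.75 in ND and 5.09, 4.97 and 4.80 in HF, a difference of -0.69 ± 0.22 (SE). ND replicate 1 and HF replicate 1 lay side by side, and the arrays did not overlap. A_51_P425071 lies within C1qtnf3, which encodes a secreted protein of the C1q and tumour necrosis factor family. It was higher in HF by 0.70 ± 0.30 (SE), and HF replicate 3 lay far above the other HF arrays at -0.15 against -1.19 and -1.06.

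Divergent probes upstream of protein-coding genes made up 8 of the 18 lower probes. Of the 118 tested probes opposite a protein-coding gene, those 8 (6.78%) were lower and 5 (4.24%) higher. These shares were near the 5.32% and 4.49% of all probes. Abcb1b encodes a P-glycoprotein, a pump that drives drugs and lipids out of cells. The probe upstream of it lies within the long non-coding gene Gm5106 and had levels of 7.25, 7.04 and 7.20 in ND and 6.68, 6.43 and 6.28 in HF, a difference of -0.70 ± 0.16 (SE). Eef2k encodes the kinase that slows protein synthesis by phosphorylating elongation factor 2. The probe upstream of it, within Gm36449, had levels of 5.47, 5.89 and 5.47 in ND and 4.92, 4.58 and 4.78 in HF, a difference of -0.85 ± 0.20 (SE). In both genes HF replicate 1 was the HF array nearest to the ND arrays, and the differences within slide 1 were -0.48 and -0.69. Adjusted p-values in limma were 0.389 and 0.392.

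Other opposite-strand probes that were lower lay upstream of E2f6, a repressor of the E2F family (-0.84 ± 0.26, SE), of Fbrs (-0.57 ± 0.16, SE) and of Galnt13, an enzyme that starts O-linked sugar chains (-0.53 ± 0.18, SE). The probe upstream of Stt3b, a catalytic subunit of the complex that attaches N-linked sugars, differed by -0.39 ± 0.16 (SE). It was the brightest of the group, with levels of 10.21, 10.65 and 10.32 in ND and 9.93, 10.07 and 10.02 in HF. Among the 18 lower probes at gene starts, 7 carried at least 8 cytosines in their first 15 bases, a class described further on. They include the probes upstream of E2f6, Fbrs, Galnt13 and Stt3b and the Mrpl2 probe. Of the 21 tested probes at gene starts in that class, those 7 (33.3%) were lower and 0 higher, and of the 363 others 11 (3.03%) were lower and 9 higher.

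Cdr1 is best known for the circular RNA made from its opposite strand, which binds microRNAs. The probe upstream of it on that strand, A_55_P2025655, had levels of 2.86, 3.27 and 3.29 in ND and 3.83, 3.46 and 3.92 in HF. All HF arrays lay above the ND arrays, HF replicate 2 only just. The difference was 0.59 ± 0.18 (SE, n = 3 per group), with an adjusted p of 0.435 in limma. The sequence of that circular RNA was not searched, so whether the probe reads it was not tested.

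On the gene's own strand, the probe upstream of Plce1, a phospholipase C that acts downstream of Ras proteins, was higher in HF by 0.85 ± 0.20 (SE). That at the start of Gstm6, a glutathione transferase, was lower with a difference of -0.98 ± 0.27 (SE), and its levels were dim: -0.71, -0.97 and -0.75 in ND and -2.26, -1.32 and -1.79 in HF. The probe opposite the start of Fam193a differed by 1.13 ± 0.29 (SE) at levels of -3.14 to -2.15 in ND and -1.75 to -1.17 in HF, near the background of the arrays.

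A pair of dim probes past a 2-fold difference held 1 very low array. A_55_P2154809 lies upstream of the long non-coding gene Gm42023, within Morn3, and had levels of -1.61, -1.20 and -1.52 in ND and -2.26, -1.95 and -4.30 in HF. All HF arrays lay below all ND arrays, and 0 of 3 HF arrays were well above background. By group means the probe was 2.62-fold lower in HF, an estimate and not a minimum. The difference was -0.81 within slide 1 and -0.66 without HF replicate 3. A_55_P1975665 lies at the start of Rhox4e, a homeobox gene in a cluster of near-identical copies, so its signal may be shared between copies. Its levels were -1.15, -0.99 and -1.03 in ND and -1.03, -1.37 and -4.29 in HF, and its unadjusted p was 0.133 in limma's moderated test. Only HF replicate 3 lay far from the ND arrays in the Rhox4e probe, and its difference within slide 1 was 0.03.

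Few probes lay over microRNA precursors, the hairpins from which mature microRNAs are cut. Of the 13 tested probes that overlapped a RefSeq hairpin, 0 had an unadjusted p under 0.05 in limma, too few probes to set against the background of 9.81%. The median difference was -0.09. The probe over Mir8110 had levels of 4.39, 4.52 and 4.50 in ND and 4.32, 4.04 and 4.34 in HF. Its HF arrays all lay below its ND arrays, with a difference of -0.24 ± 0.12 (SE, n = 3 per group) and an adjusted p of 0.551 in limma. The probes over Mirlet7c-2 and Mir410 read the strand of the hairpin, and those over Mir92-2, Mir18 and Mir760 the opposite strand. Mature microRNAs are shorter than a probe.

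Probes without a matched gene are given by identifier, and they may lie in the body of any gene, those named above included. A_55_P2097391 had levels of 1.77, 2.10 and 1.93 in ND and 3.13, 3.08 and 3.28 in HF. The diets lay apart by more than the spread within either, with a difference of 1.23 ± 0.17 (SE, n = 3 per group), 1.19 within slide 1 and an adjusted p of 0.265 in limma. A_55_P2068459 had levels of 2.39, 2.34 and 2.60 in ND and 3.75, 3.82 and 3.39 in HF, a difference of 1.21 ± 0.15 (SE) with an adjusted p of 0.179 in limma. Both probes passed after normexp, A_55_P2097391 with an adjusted p of 0.0424 (range over the alternatives 0.0424 to 0.692) and A_55_P2068459 with 0.0200 (0.0200 to 0.620).

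A_51_P255699 differed by 1.57 ± 0.27 (SE), and its HF array on slide 1, at -0.31, lay below those of slide 2, at 0.45 and 0.75. A_52_P249920 was well above background on all HF arrays and on 0 of 3 ND arrays. Set against the dimmest detected probe of each ND array, or against its own signal where that was higher, it was 3.50-fold higher in HF. That is an estimate and not a minimum.

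On the lower side, mmu_28906_PI428960544 had levels of -0.72, -0.77 and -0.89 in ND and -1.94, -1.94 and -1.90 in HF. The values of mmu_26462_PI428960544 were -1.70, -1.43 and -1.59 in ND and -2.66, -2.82 and -2.84 in HF. In both, all HF arrays lay below all ND arrays. These probes were dim, and the spread between HF arrays was under 0.2 in each. After normexp, which shrinks dim signals, the differences were -0.41 and -0.34 in the same order, against -1.13 and -1.20. The probe with the smallest unadjusted p of all tested, mmu_18159_PI428960544, was also dim. It had levels of -1.74, -1.60 and -1.67 in ND and -3.24, -3.26 and -3.08 in HF. It was well above background on all ND arrays and on 0 of 3 HF arrays. Its difference was -1.53 ± 0.17 (SE, n = 3 per group), with an adjusted p of 0.179 in limma.

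A brighter probe, A_55_P2065754, was singled out because it passed after normexp, with an adjusted p of 0.0424 (range over the alternatives 0.0424 to 0.729). It had levels of 5.31, 5.80 and 5.27 in ND and 4.33, 3.97 and 4.22 in HF, a difference of -1.28 ± 0.21 (SE, n = 3 per group), and -1.13 within slide 1. It ends in a poly(A) signal and carries 8 cytosines in its first 15 bases.

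**Figure D2:**
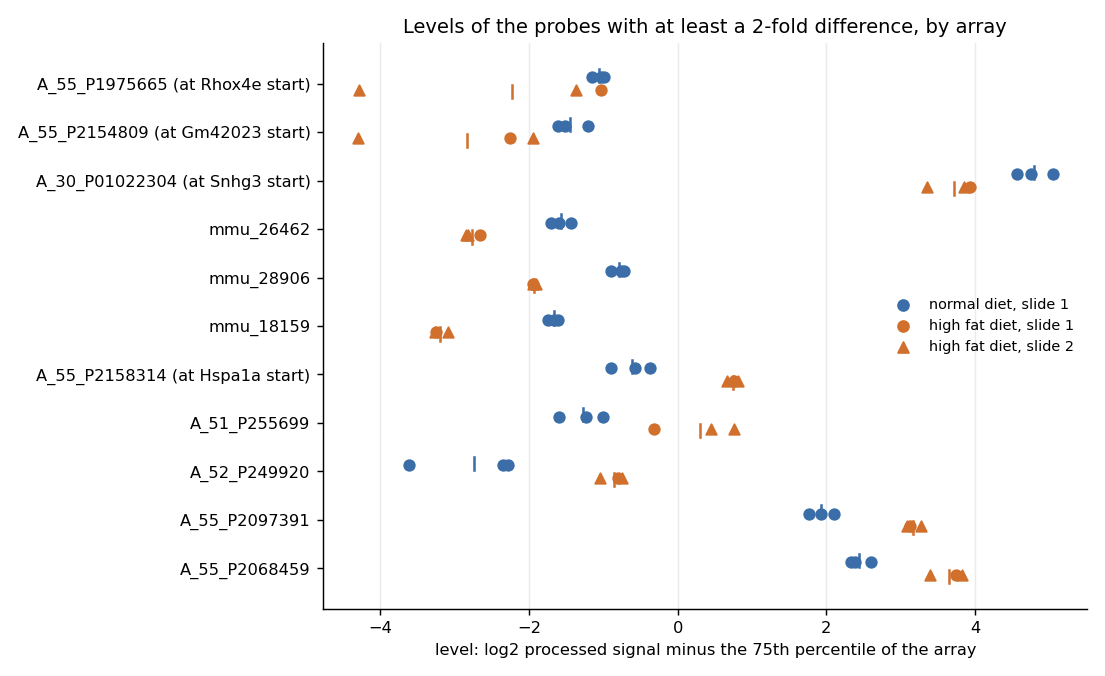
Levels (x axis, log2 processed signal minus the 75th percentile of the array) are shown for 11 probes with a log2 difference of 1 or more in either direction. All were well above background on all arrays of a diet. They are every such probe at a gene start, whatever its p, and unplaced probes chosen for the smallest unadjusted p. Symbols are arrays, with shape giving the slide, and short lines are group means. The Hspa1a-start probe runs from -0.90 to -0.38 in normal diet and from 0.67 to 0.81 in high fat diet, and in the Rhox4e and Gm42023 probes a single high fat array lies at -4.29 and -4.30.

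Detection itself leaned to 1 side. Of the 43949 probes tested, 273 were well above background on all 3 ND arrays and 0 of 3 HF arrays, and the reverse held for 19. Such probes could pass the filter of 3 arrays through 1 diet alone. With at least a 2-fold difference the numbers were 57 and 7. Among those with the smallest p in each direction, the 2 named here had the largest fold differences. A_52_P484956 was 5.60-fold higher in HF and A_51_P111068 3.35-fold lower. Both values were estimated as for A_52_P249920 and are not minima. HF replicate 1 had the lowest share of probes above background of the 6 arrays, and its part in this count was not tested.

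A large share of lower probes was found among those that hold a run of alternating G and T. Such runs are copies of a simple repeat that is common in mammalian introns and untranslated regions. Of the 159 tested probes with a run of at least 12 bases, 145 (91.2%) had a lower signal in HF at an unadjusted p under 0.05, while 0 had a higher one, against 5.32% and 4.49% of all probes. All 159 differences were below 0, from -1.03 to -0.04, with a median of -0.44. None of the 159 passed at an adjusted p under 0.05 in limma. The class was chosen after its values were seen, and its probes share the repeat and may bind the same RNAs, so they count as 1 observation and carry no test.

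The share of lower probes increased with the length of the run. It was 4.70% of 41793 probes with runs of up to 5 bases, 7.69% of 1665 with 6 to 7 and 17.8% of 230 with 8 to 9. It was 56.9% of 102 probes with 10 to 11 bases, 90.7% of those with 12 to 19 and 92.3% of 52 with 20 or more. The size of the difference did not increase in the same way, with medians of -0.52, -0.51 and -0.39 in the last 3 of these classes. The mirror repeat of alternating A and C, which is the same DNA read on the other strand, had other values. With runs of at least 12 bases, 0 of 115 such probes were lower and 9 higher, with a median of -0.02. In the 24 probes with at least 20 bases the median was 0.22, and 7 were higher and 0 lower. The median deviation of the 115 probes was -0.13, 0.17 and -0.02 on the ND arrays and 0.22, -0.12 and -0.07 on the HF arrays, so the diets overlapped and HF replicate 1 stood highest. That array lay above every ND array in 68 of the 115 probes, with a median difference of 0.19 within slide 1.

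Array by array, the median deviation of the G and T probes from their mean over the 6 arrays was 0.24, 0.28 and 0.15 in ND and -0.07, -0.33 and -0.28 in HF. All HF arrays lay below all ND arrays, with HF replicate 1 nearest to them. On the HE arrays, which also come from mice on high fat diet, it was -0.06, -0.20 and 0.07, and the last of these was alone on slide 3. Within slide 1, HF replicate 1 lay below every ND array in 152 of the 159 probes (95.6%), against 23.7% of all probes, with a median difference of -0.30. With slide as a block 15 of the 159 were lower at an unadjusted p under 0.05. Over the alternatives the median ran from -0.52 to -0.30, and no scaling gave a higher probe at that p.

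Single probes show the size. A_55_P2072403 had levels of 6.51, 6.54 and 6.46 in ND and 5.87, 5.88 and 5.93 in HF, a difference of -0.61 ± 0.12 (SE, n = 3 per group). The diets were apart by several times the spread within each. The probe mmu_26509_PI428960544 had the largest difference of the class, -1.03 ± 0.21 (SE). A_55_P2066792, with a run of 37 bases, was the brightest at 8.62, 8.75 and 8.61 in ND and 8.39, 8.41 and 8.48 in HF. Its difference was smaller, -0.23 ± 0.12 (SE), with an unadjusted p of 0.0950 in limma. Of the A and C probes, A_55_P1988774 had 6.35, 6.46 and 6.30 in ND and 6.69, 6.69 and 6.59 in HF.

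**Figure D3:**
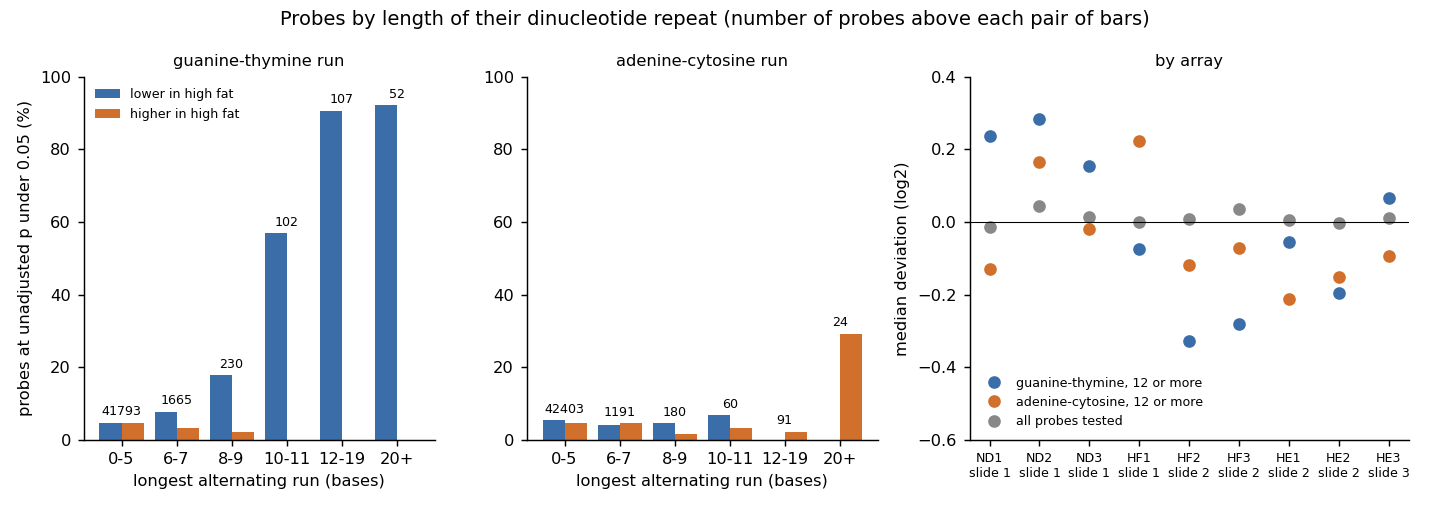
The left and middle panels give the percentage of probes lower or higher in high fat diet at an unadjusted p under 0.05 (y axis) by the length in bases of the longest guanine-thymine or adenine-cytosine run (x axis), with the number of probes above the bars. The right panel gives the median deviation (log2) of each class from its mean over the 6 arrays, by array and slide. The guanine-thymine classes rise from 4.70% to 92.3% lower, and the high fat arrays lie at -0.07, -0.33 and -0.28.

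A second class was set by cytosines at the 5′ end of the probe. Of the 970 probes with at least 8 C among their first 15 bases, 142 (14.6%) were lower and 12 (1.24%) higher by that p, and the median difference was -0.13. With 10 or more, 37 of 89 (41.6%) were lower and 0 higher, with a median of -0.28. At the other end of the probe the higher share was near that of all probes and the lower share was below it. With at least 8 C among the last 15 bases, 31 of 883 (3.51%) were lower and 41 (4.64%) higher, with a median of 0.06. Of all probes 5.32% were lower and 4.49% higher. The 3′ class had median deviations of -0.08, 0.10 and -0.04 on ND arrays and -0.03, 0.02 and 0.11 on HF arrays, which overlapped. Such probes were bright, with a median level of 2.65 for the 5′ class against 0.08 for all probes.

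The 5′ class rested more on 1 array. The median deviation was 0.05, 0.21 and -0.02 on the ND arrays and -0.11, -0.09 and 0.00 on the HF arrays, so 1 HF array lay above 1 ND array and ND replicate 2 stood highest. Without ND replicate 2 the median was -0.07 and 78 probes were lower. Within slide 1 the median difference was -0.15, and HF replicate 1 lay below every ND array in 47.0% of the class, against 23.7% of all probes. With the array median as the scale, which moved the median of all probes to 0.08, 93 were lower, and the class median was -0.05.

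**Figure D4:**
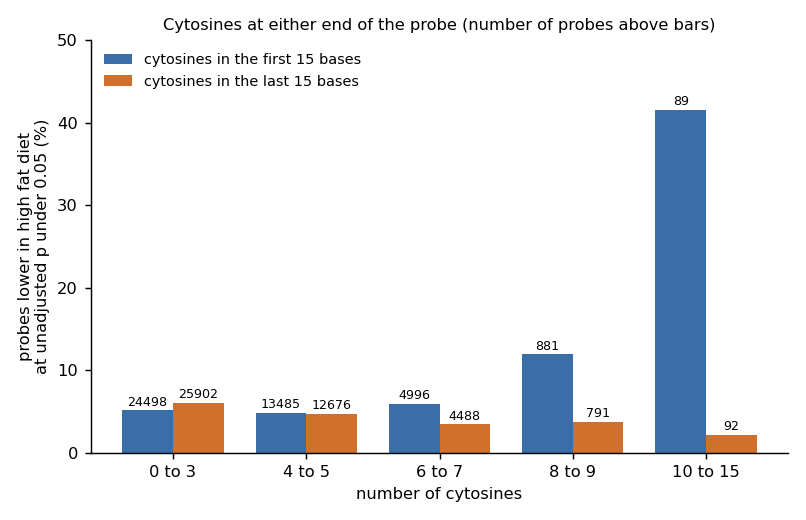
Bars give the percentage of probes lower in high fat diet at an unadjusted p under 0.05 (y axis) by the number of cytosines among the first or the last 15 bases of the probe (x axis), with the number of probes above each bar. The share is 41.6% with 10 or more at the 5′ end and 2.17% with 10 or more at the 3′ end.

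The poly(A) signal AATAAA lies close to the end of the messenger RNA in most genes. Probes that hold it were somewhat more often lower and less often higher than those without it. Of 4664 such probes 6.43% were lower and 3.07% higher, against 5.19% and 4.66% of the 39285 without it. Bright probes, with a mean level over 6, held 174 of 908 (19.2%) lower and 20 (2.20%) higher. The G and T class, with a median level of 4.72, and the 5′ cytosine class were bright as well. The part of signal level in the shares of these classes was not tested. Setting aside runs of at least 10 alternating G and T bases and the 5′ cytosine class left 1993 lower and 1962 higher among 42720 probes, a lower share of 4.67%.

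Some stretches of sequence were measured by more than 1 probe. In 964 pairs of tested probes that shared at least 30 bases on 1 strand, each with no other partner, the log2 differences of the 2 probes had a Pearson correlation of 0.55 across pairs, and of 0.67 in 419 pairs with both levels over 0. Pairs are not independent replicates, and both probes of a pair come from the same arrays. The median gap between the paired differences was 0.13. In 27 pairs both probes had an unadjusted p under 0.05, 12 higher in both, 14 lower in both and 1 opposed.

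The pair A_55_P2312144 and mmu_29244_PI428960544 shared 57 bases. The first had levels of 3.65, 3.34 and 3.78 in ND and 4.22, 4.56 and 4.59 in HF, and the second 3.68, 3.52 and 3.45 in ND and 4.02, 4.51 and 4.58 in HF. Both probes placed HF replicate 1 between the ND arrays and the other HF arrays. The differences were 0.87 ± 0.17 and 0.82 ± 0.17 (SE, n = 3 per group), and 0.63 and 0.46 within slide 1. In the opposed pair, A_55_P1973770 differed by 0.50 and mmu_11354_PI428990136 by -0.45, at levels in ND of 0.05 and 3.97.

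**Figure D5:**
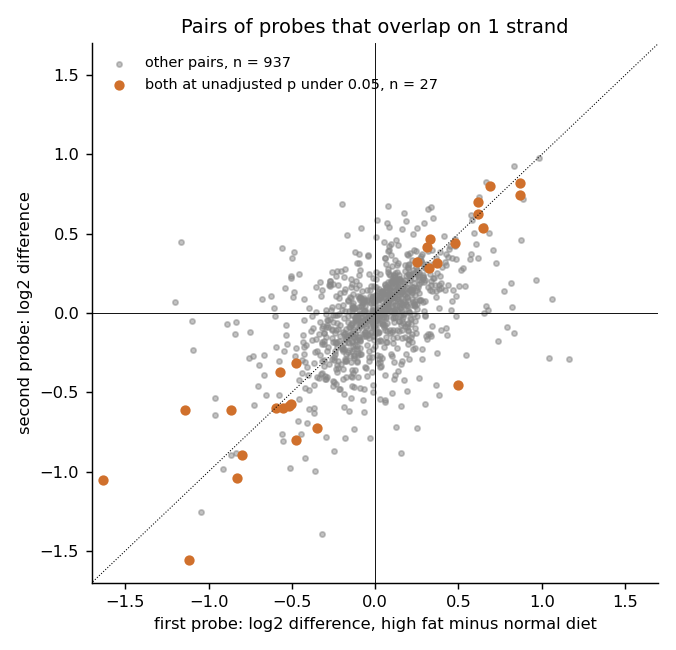
Each point is 1 of 964 pairs of overlapping probes, placed by the log2 difference, high fat minus normal diet, of its first (x axis) and second probe (y axis), with the dotted line marking equal values. Coloured points are the 27 pairs in which both probes had an unadjusted p under 0.05, of which 26 lie on the same side of 0 in both.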

How the data were processed

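Per the labels' protocols, aortic RNA was converted to Cy3 cRNA for arrays of a single colour. Scans were read by the authors in Agilent Feature Extraction 10.7.1.1 (submitters' processing notes). The deposited scanner files hold a linear intensity per spot, background-subtracted and not scaled between arrays, per the file headers. The deposited value table holds log2 values that correlated with their own arrays at 0.9954 to 0.9999, with medians of 4.7946 or 4.7947, and 0 of its columns were unused. No source used here names the step that made its columns alike.

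Controls and the 17 to 29 outlier-flagged spots of each array were removed; none was saturated. Duplicate spots were averaged as log2 processed signal, and the array's 75th percentile was subtracted. A probe was kept when well above background on at least 3 of 9 arrays. The number of arrays limits the precision. The test was limma 3.58.1 (R 4.3.3), with 1 fit over 9 arrays (residual degrees of freedom 6, prior 3.12), with Benjamini-Hochberg adjustment over 43949 probes; p-values are limma's unless named as exact. Array measures were compared by two-sided exact permutation tests. The fit was tested on simulated data. The members and lists were chosen with earlier results of these data known, and the sequence classes and probe pairs after their values were seen.

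Probes were placed by exact sequence match to RefSeq start regions and hairpins of GRCm38.p6. Probes named are those past the adjusted threshold, then up to 10 placed and 4 unplaced probes per direction with the smallest p among those differing by at least 1 on the log2 scale and well above background on all arrays of a diet, plus probes present on all arrays of 1 diet and none of the other. Of these, 1 is not reported here and was not replaced. The protein and transcript matches planned for naming were not used here, so gene list and marker counts were not made. Alternatives were the normexp correction (offset 50), other scalings, other filters on dim probes, other priors, array weights, slide or replicate block, the authors' table and each array left out.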

Additional observations from a re-analysis of the deposited data

How the results depend on the processing

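The count of 0 probes at an adjusted p under 0.05 became 4 after normexp (3 higher, 1 lower) and 25 with slide as a block, all lower, and stayed 0 under each of the other alternatives run. The 25 rest on HF replicate 1, which lay below every other ND and HF array in all 25, and 6 of them had an unadjusted p under 0.05 without the block. The count at an unadjusted p under 0.05 was 2683 with the slide block and 2374 within slide 1, where only 1 HF array is left, and 2734 to 6030 with 1 array left out. At least 2-fold higher were 10 probes after normexp, 164 with the array median, 269 with no filter, 31 among probes detected on all arrays, 56 with the slide block, 60 within slide 1 and 77 to 297 with 1 array left out. At least 2-fold lower were 10 after normexp, 505 with no filter, 34 among probes detected on all arrays, 335 with array weights, 667 with the slide block, 692 within slide 1 and 180 to 567 with 1 array left out. Leaving out ND replicate 1 (297 higher), ND replicate 3 (181 higher) and HF replicate 1 (205 higher, 567 lower) moved these counts most, and the count at an unadjusted p was 2873 without ND replicate 2, 2734 without HF replicate 2 and 2763 without HF replicate 3. The cause was not tested.

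The replicate number as a block gave 0 probes at an adjusted p under 0.05 and 3362 at an unadjusted one, with 194 at least 2-fold lower. Same-numbered arrays had correlations of deviations of -0.06, -0.25 and 0.03, so they share only a number.

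The median of the probes at gene starts turned from -0.06 to 0.0222 with the array median. The Rhox4e probe turned to 0.0305 and the B230307C23Rik probe, -0.61, to 0.0913 with slide as a block and within slide 1. The split of calls was 45.8% higher, 72.3% with the array median, 22.6% with the slide block and 19.4% within slide 1. The gene list medians were not run. Normexp with this offset shrinks the differences of dim probes by construction.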
